A study of Mus musculus with 6 samples.

Results

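The genes described here are the antioxidant enzymes of superoxide and hydrogen peroxide removal: the superoxide dismutase genes Sod1 and Sod2, the peroxiredoxin genes Prdx1 to Prdx6, the catalase gene Cat and the thioredoxin reductase gene Txnrd1. They were taken as a list of 10 genes by name, and each gene was read from its brightest probe set, using probe sets that the array annotation pairs with no other gene. Prdx6 was read from the probe set number given for it in the study's supplement, where its RefSeq accession is that of Prdx6. The supplement lists probe sets that the study itself called on these same arrays, so Prdx6 could be measured only because it had been called. No probe set was paired in either way with Prdx5, so 9 of the 10 genes were measured, among 19939 genes named on the array. The study profiled whole thymus of 10-day-old mice on 6 Affymetrix MoGene-1 arrays. The genotype CD2-Myc/CD2-Runx2 on background strain C57BL6/CBA (3 arrays) is called RUNX2/MYC, and the C57/CBA genotype without these transgenes (3 arrays) is called WT. Each array is labelled as its own biological replicate, and the methods describe littermate controls. Both transgenes are driven by CD2 control elements, which act in T-lineage cells, whereas the RNA came from the whole organ with its thymocytes, epithelium, myeloid cells and vessels. In such bulk RNA, fewer cells of a type and less RNA per cell cannot be told apart.

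The genotype labels were checked on Runx2, whose log2 signals were 11.73, 11.78 and 11.96 in RUNX2/MYC and 7.94, 7.94 and 7.93 in WT. The MYC transgene was not checked. Signals ran from 3.75 to 14.56 over all probe sets and array medians from 7.31 to 7.49, and the number of arrays limits the precision. The T-cell marker gene Cd3e was bright on every array (12.79 to 13.04). RUNX2/MYC replicate 2 stood apart in adipocyte genes: 13 of the 18 adipocyte markers measured were highest in that array, against 23.7% of all genes. Signal of Ucp1, which makes heat in brown fat, was 9.93 there and 6.12 to 6.95 in the other arrays. Of the 7 erythroid markers measured, 4 were highest in RUNX2/MYC replicate 1, among them Alas2 (10.91, against 8.55 to 9.98 in the others) and Slc4a1 (9.03, against 7.41 to 8.08), and the other 3 were highest in WT replicate 1. Results are therefore also given without these arrays where they bear on them.

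Superoxide dismutases turn the superoxide radical, which leaks from respiration and is made by NADPH oxidases, into hydrogen peroxide and oxygen. SOD1, a copper and zinc enzyme, works mainly in the cytosol, and SOD2, a manganese enzyme, in the mitochondrial matrix. Peroxiredoxins then reduce peroxides through a reactive cysteine. PRDX1 and PRDX2 act in the cytosol and PRDX3 in mitochondria, and these are recharged by thioredoxin, which thioredoxin reductase keeps reduced at the cost of NADPH. PRDX4 acts in the endoplasmic reticulum. PRDX6, mainly cytosolic, has 1 active cysteine, uses glutathione in place of thioredoxin, and also has phospholipase activity. Catalase destroys hydrogen peroxide in peroxisomes.

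In RUNX2/MYC thymus 3 of the 9 measured genes were higher, Sod2, Prdx3 and Prdx6, by 1.47- to 1.58-fold, and none was lower. A gene was called at an adjusted p under 0.05, from limma and the Benjamini-Hochberg method applied to the whole array. By this rule 1.68% of all probe sets were higher and 0.127% lower. The other 6 genes did not pass, and at an unadjusted p under 0.05 there were 4 higher, Txnrd1 being added, and 0 lower (12.0% and 9.27% of all probe sets). By the ANOVA with q values that the methods name, the same count of 3 higher and 0 lower was found. Prdx6 could enter the 9 genes only as already called by the study, so its call is no separate support in either count. In 6 of the 9 genes every RUNX2/MYC array was above every WT array, as in 14.3% of all probe sets. Prdx1 is among these by its brighter probe set only, since the groups overlapped in its dimmer one. The median log2 fold change of the 9 genes was 0.18, against -0.07 over all genes. All 9 genes stayed when dim probe sets, those with a mean below the median of all, were left out. The median over the probe sets kept was then 0.07, against -0.05 over all probe sets. In that fit 1247 probe sets were called higher, against 596 over the whole array.

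**Figure D1:**
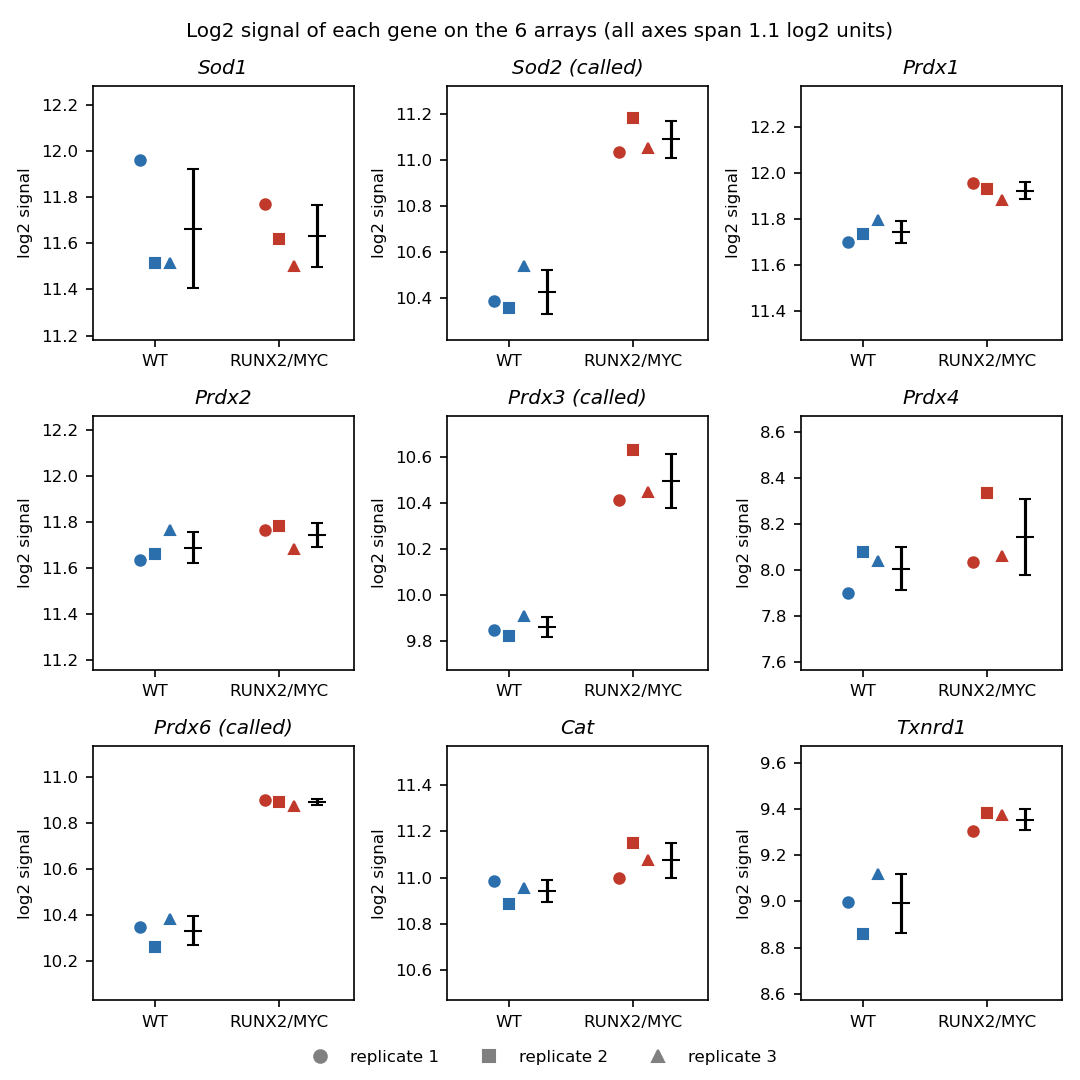
Log2 signal of each measured gene on the WT arrays (blue) and the RUNX2/MYC arrays (red), one panel a gene, with replicates 1 to 3 as circle, square and triangle. Black bars are the mean and SD of 3 arrays. In Sod2, Prdx3 and Prdx6 the groups lie 0.49 to 0.50 log2 units apart at their nearest points, while those of Sod1, Prdx2 and Prdx4 overlap.

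The upstream sequences of these genes are shown because Sod2 and Prdx3 rose together while Sod1 and Prdx1, of the same families, did not pass. RefSeq sequence (GRCm38.p6) of the 250 bases before the annotated start was at hand for 9 of the 10 genes, all but Prdx6. Windows were searched on both strands for the E-box CACGTG that MYC binds, the RUNX core TGTGGT and the antioxidant response element core TGACNNNGC that NRF2 binds. No match overlapped another. Capitals mark matches, and a match on the reverse strand reads as its reverse complement, so TGTGGT appears as ACCACA.
Prdx3, chr19:60874539-60874788, minus strand: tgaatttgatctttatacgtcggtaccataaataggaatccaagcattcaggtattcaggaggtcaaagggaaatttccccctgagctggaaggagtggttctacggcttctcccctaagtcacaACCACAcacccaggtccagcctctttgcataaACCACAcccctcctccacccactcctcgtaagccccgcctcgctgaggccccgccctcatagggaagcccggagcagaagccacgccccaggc
Sod2, chr17:13007589-13007838, plus strand: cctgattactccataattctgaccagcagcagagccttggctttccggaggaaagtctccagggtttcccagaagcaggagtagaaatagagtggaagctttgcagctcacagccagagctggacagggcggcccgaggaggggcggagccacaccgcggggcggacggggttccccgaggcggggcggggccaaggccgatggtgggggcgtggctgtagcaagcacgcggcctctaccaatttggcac
Prdx1, chr4:116685349-116685598, plus strand: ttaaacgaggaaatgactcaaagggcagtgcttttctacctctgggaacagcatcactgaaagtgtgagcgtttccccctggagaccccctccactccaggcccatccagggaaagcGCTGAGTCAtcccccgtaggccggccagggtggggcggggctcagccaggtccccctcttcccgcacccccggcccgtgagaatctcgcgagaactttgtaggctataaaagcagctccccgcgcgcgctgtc
Sod1, chr16:90220512-90220761, plus strand: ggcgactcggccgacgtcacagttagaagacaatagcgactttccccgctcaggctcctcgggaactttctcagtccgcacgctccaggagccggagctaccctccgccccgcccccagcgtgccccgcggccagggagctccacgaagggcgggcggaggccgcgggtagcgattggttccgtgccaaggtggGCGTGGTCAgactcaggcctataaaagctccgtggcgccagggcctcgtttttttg
The window of Prdx3 holds 2 RUNX cores, first bases at -125 and -93 from the start, and that of Sod2 holds none of the 3 motifs. The antioxidant core was found in Prdx1 (-133), Sod1 (-56) and 1 of the 3 windows of Txnrd1, and the E-box in Prdx4 alone (-52). Of all genes with a window, 15.9% hold the RUNX core, 11.5% the antioxidant core and 6.86% the E-box, so the 1 of 9, 3 of 9 and 1 of 9 found here are counts of few genes. A match is a stretch of letters and no measurement of binding.

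Sod2, the dismutase of the mitochondrial matrix, had log2 signals of 11.03, 11.18 and 11.05 in RUNX2/MYC replicates 1 to 3 and of 10.39, 10.36 and 10.54 in WT replicates 1 to 3. All RUNX2/MYC arrays lay above all WT arrays, with 0.49 log2 units between the nearest of them. The log2 fold change, called the change from here on, was 0.66 (standard error 0.094, 95% interval 0.44 to 0.88, adjusted p = 0.0271 from limma), a 1.58-fold rise, and 97.9% of all genes had a smaller change in either direction. Sod1, the cytosolic dismutase, had 11.77, 11.62 and 11.50 in RUNX2/MYC and 11.96, 11.52 and 11.51 in WT. Its groups overlapped, and the highest signal of all was that of WT replicate 1. Its change was -0.03 (95% interval -0.38 to 0.32, adjusted p = 0.897 from limma), a value whose sign turned under median centring (0.05), without WT replicate 1 (0.12) and without RUNX2/MYC replicate 3 (0.03).

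Taken within each array, the log2 signal of Sod2 minus that of Sod1 was -0.74, -0.44 and -0.45 in RUNX2/MYC and -1.57, -1.16 and -0.98 in WT. This difference, which removes any scaling common to the array, was thus higher in every RUNX2/MYC array, by 0.69 on average (within-group SD 0.25). With 3 arrays against 3 an exact permutation test cannot give a p below 0.1, and the test gave p = 0.1 (two-sided, adjusted p = 0.1 over 2 pairs of genes). Without WT replicate 1, the array with the highest Sod1, it was 0.53. Only the change of the difference is read here, since signals of different probe sets do not rank the genes by abundance.

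Among the peroxiredoxins the mitochondrial member Prdx3 had the largest value. Its log2 signals were 10.41, 10.63 and 10.45 in RUNX2/MYC and 9.85, 9.82 and 9.91 in WT. The WT arrays lay within 0.09 of each other and 0.50 below the nearest RUNX2/MYC array. The change was 0.63 (standard error 0.094, 95% interval 0.41 to 0.86, adjusted p = 0.0291 from limma). Prdx6 followed with 10.90, 10.89 and 10.87 in RUNX2/MYC and 10.35, 10.26 and 10.38 in WT. It had the smallest spread in RUNX2/MYC among the 9 genes, with an SD of 0.013, and its change was 0.56 (standard error 0.081, 95% interval 0.37 to 0.75, adjusted p = 0.0283 from limma).

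Prdx1, Prdx2 and Prdx4 did not pass. Prdx1 had 11.95, 11.93 and 11.88 in RUNX2/MYC and 11.70, 11.74 and 11.79 in WT. The groups did not overlap, but the nearest arrays were only 0.09 apart and the change of 0.18 did not pass (95% interval -0.01 to 0.37, adjusted p = 0.251 from limma). Prdx2, a major peroxiredoxin of red cells, had 11.76, 11.78 and 11.68 against 11.64, 11.66 and 11.77, with overlap and a change of 0.06 (95% interval -0.15 to 0.26, adjusted p = 0.691 from limma). Prdx4 had 8.04, 8.33 and 8.06 against 7.90, 8.08 and 8.04, a change of 0.14 (95% interval -0.13 to 0.40, adjusted p = 0.465 from limma), with RUNX2/MYC replicate 2 standing above the rest.

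Prdx1 and Prdx2 each have a further, dimmer probe set, and since near-identical gene copies can share probes, neither probe set is sure to read that gene alone. The dimmer set of Prdx1 ran from 11.21 to 11.33 in RUNX2/MYC and from 11.09 to 11.22 in WT, so that the groups overlapped. Its change was 0.13 (adjusted p = 0.369 from limma). That of Prdx2 had a change of 0.15 (adjusted p = 0.377 from limma). The probe sets of each gene thus had the same sign, and neither of either gene passed.

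Within each array the log2 signal of Prdx3 minus that of Prdx1 was -1.54, -1.30 and -1.44 in RUNX2/MYC and -1.85, -1.91 and -1.88 in WT. This difference was higher in every RUNX2/MYC array than in any WT array, by 0.45 on average (within-group SD 0.088, exact permutation test, two-sided, p = 0.1, the smallest it allows). Without RUNX2/MYC replicate 2, the array high in adipocyte genes, this was 0.39. With Prdx1 read as the mean of both its probe sets, which may not read that gene alone, it was 0.48. The pairs planned with Prdx5 could not be formed.

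Cat, the peroxisomal catalase, had 11.00, 11.15 and 11.08 in RUNX2/MYC and 10.98, 10.89 and 10.95 in WT. Its groups did not overlap but were only 0.015 apart, and the change was 0.13 (95% interval -0.07 to 0.34, adjusted p = 0.367 from limma). Txnrd1, the cytosolic thioredoxin reductase and a gene known to answer to the stress regulator NRF2, had 9.30, 9.38 and 9.38 in RUNX2/MYC and 9.0, 8.86 and 9.12 in WT. No array of one group reached into the other, with 0.19 between the nearest. The change of 0.36 did not pass (standard error 0.096, 95% interval 0.14 to 0.59, unadjusted p = 0.00703, adjusted p = 0.116 from limma).

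**Figure D2:**
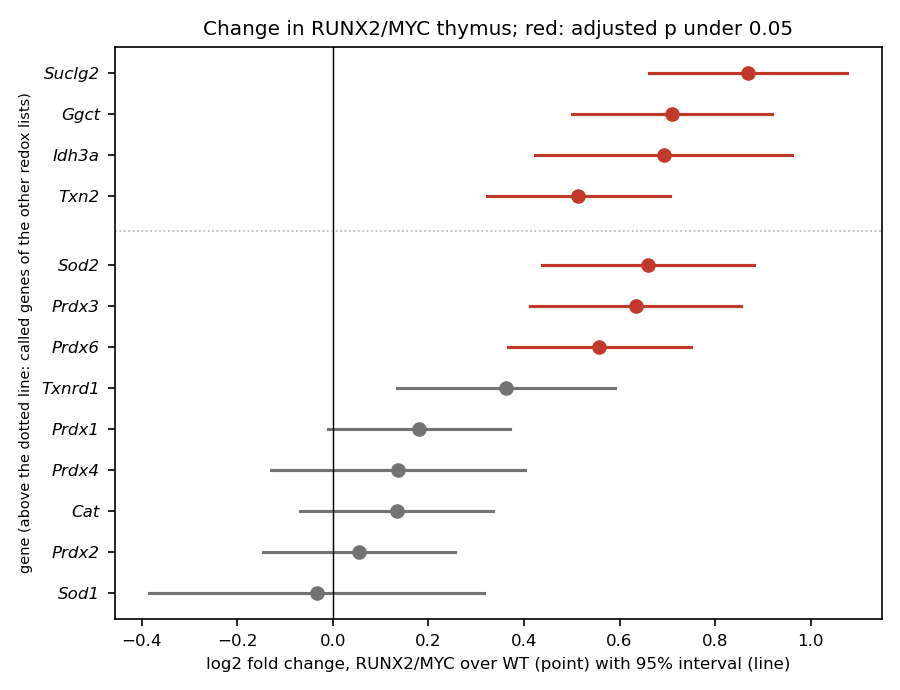
Log2 fold change of RUNX2/MYC over WT (points) with its 95% interval from limma (lines) for the 9 measured genes and, above the dotted line, the called genes of the other redox lists. Red marks an adjusted p under 0.05. Sod2 (0.66), Prdx3 (0.63) and Prdx6 (0.56) have the highest values of the 9, followed by Txnrd1 (0.36).

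The partners of these enzymes were read from 9 lists that hold 90 measured genes, some of them in more than 1 list, of which limma called 4 higher and 0 lower (22 and 11 by unadjusted p, and 9 and 1 by the ANOVA with q values). Over all probe sets the shares were 1.68% and 0.127% by limma and 12.0% and 9.27% by unadjusted p. The higher genes were Txn2, Ggct, Idh3a and Suclg2. Txn2, the thioredoxin of mitochondria that recharges PRDX3, had 10.83, 10.92 and 10.79 in RUNX2/MYC and 10.34, 10.33 and 10.33 in WT. The groups were well apart, with a change of 0.51 (SE 0.081, adjusted p = 0.034). It was the only called gene among the 20 of the thioredoxin and glutaredoxin list, whose median was 0.12. The further genes of that list named here were chosen after their values were seen. Txnrd2, the mitochondrial reductase that serves TXN2, had a change of 0.16 (adjusted p = 0.332) and the cytosolic thioredoxin Txn1 of -0.02 (adjusted p = 0.876). The largest value was that of Glrx3 at 0.71 (adjusted p = 0.0651), and Txnip, an inhibitor of thioredoxin, had the lowest at -0.51 (adjusted p = 0.153).

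Glutathione genes were mixed. Of 10 genes of its synthesis and recycling only Ggct, which breaks down gamma-glutamyl peptides, was higher and 0 were lower (1.68% and 0.127% of all probe sets). By unadjusted p 3 were higher and 2 lower (12.0% and 9.27%). Ggct had 7.84, 7.86 and 7.91 in RUNX2/MYC and 7.10, 7.11 and 7.28 in WT (change 0.71, standard error 0.089, adjusted p = 0.02 from limma), and the list median was 0.11. Of 8 glutathione peroxidase genes none passed, with a median of -0.12 and with 1 higher and 0 lower by unadjusted p. Without dim probe sets 4 of them were left, 2 of these positive, with a median of -0.02. Gpx1, the widespread cytosolic and mitochondrial peroxidase, came nearest with 11.54, 11.23 and 11.07 against 10.76, 10.54 and 10.76. Its groups did not overlap, and its change was 0.60 (SE 0.14, adjusted p = 0.0899 from limma). Without RUNX2/MYC replicate 1, the array with the highest Gpx1 and the highest mean of erythroid markers, the change was 0.47. Of 7 measured genes of NADPH supply none passed (median -0.25), and the largest value was that of Pgd, of the pentose phosphate pathway, at 0.44 (adjusted p = 0.0547). By unadjusted p 1 was higher and 3 lower (12.0% and 9.27% of all probe sets), and 5 of the 7 values were negative.

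Of 8 genes of NRF2 and its regulators and 12 measured NRF2 target genes none passed in either direction, with medians of -0.05 and 0.01. By unadjusted p, 0 of the regulators were higher and 1 lower, and of the targets 3 and 2, against 12.0% and 9.27% of all probe sets. Nfe2l2, which encodes NRF2 and was chosen after its value was seen, had a change of -0.04 (adjusted p = 0.828). The largest value among the regulators was that of the repressor gene Bach1 at -0.41 (adjusted p = 0.161), and among the targets that of the cystine transporter gene Slc7a11 at -0.84 (adjusted p = 0.0855). Slc7a11 had 9.49, 9.94 and 9.89 in RUNX2/MYC and 10.25, 10.83 and 10.76 in WT. Every RUNX2/MYC array was below every WT array, as in 10.1% of all probe sets.

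Of 13 measured genes for sources of superoxide and hydrogen peroxide none passed, with 0 higher and 2 lower by unadjusted p (12.0% and 9.27% of all probe sets). Their median change was -0.20, against -0.07 over all genes, and 1 of the 13 values was positive, against 40.2% of all genes. Without dim probe sets only 7 of the 13 were left, 1 of these positive, with a median of -0.20. The lowest value was that of Cybb, the catalytic chain of the phagocyte NADPH oxidase, at -0.42 (adjusted p = 0.2), with 8.67 to 9.06 in RUNX2/MYC and 9.18 to 9.59 in WT. Beside this stand the macrophage and dendritic cell markers, of which 9 of 11 measured were negative and whose mean log2 signal was 7.82 to 7.85 in RUNX2/MYC and 7.93 to 8.01 in WT. Their part in these values was not tested. Of the 2 further genes of dismutation, Sod3, the extracellular enzyme, had a change of -0.11 (0.01 under cyclic loess), and Ccs, the copper chaperone of SOD1, chosen after its value was seen, of 0.06, and neither passed.

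The enzymes of the tricarboxylic acid cycle, most of which share the mitochondrial matrix with SOD2 and PRDX3, had the highest median of these lists, 0.35. Of 15 measured, 2 were higher and none lower (1.68% and 0.127% of all probe sets), with 10 and 0 by unadjusted p (12.0% and 9.27%). All 15 values were positive, against 40.2% of all genes. Under 75th percentile centring, quantile normalization and cyclic loess 13 of the 15 were. All 15 stayed without dim probe sets, where the median over the probe sets kept was 0.07. Suclg2, a subunit of succinyl-CoA ligase, had 9.37, 9.51 and 9.44 in RUNX2/MYC and 8.51, 8.55 and 8.65 in WT, a change of 0.87 (SE 0.088, adjusted p = 0.0145). It has a further, dimmer probe set, and the mean of both gave 0.82 (adjusted p = 0.0143 from limma). As for Prdx1 and Prdx2, neither probe set is sure to read that gene alone. Idh3a, a subunit of isocitrate dehydrogenase, had 10.65, 11.00 and 10.75 against 10.02, 10.15 and 10.15, a change of 0.69 (SE 0.11, adjusted p = 0.0385). RUNX2/MYC replicate 2 was the highest array for 14 of these 15 genes, against 23.7% of all genes. Without that array 14 of the 15 values were positive and the median was 0.26.

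**Figure D3:**
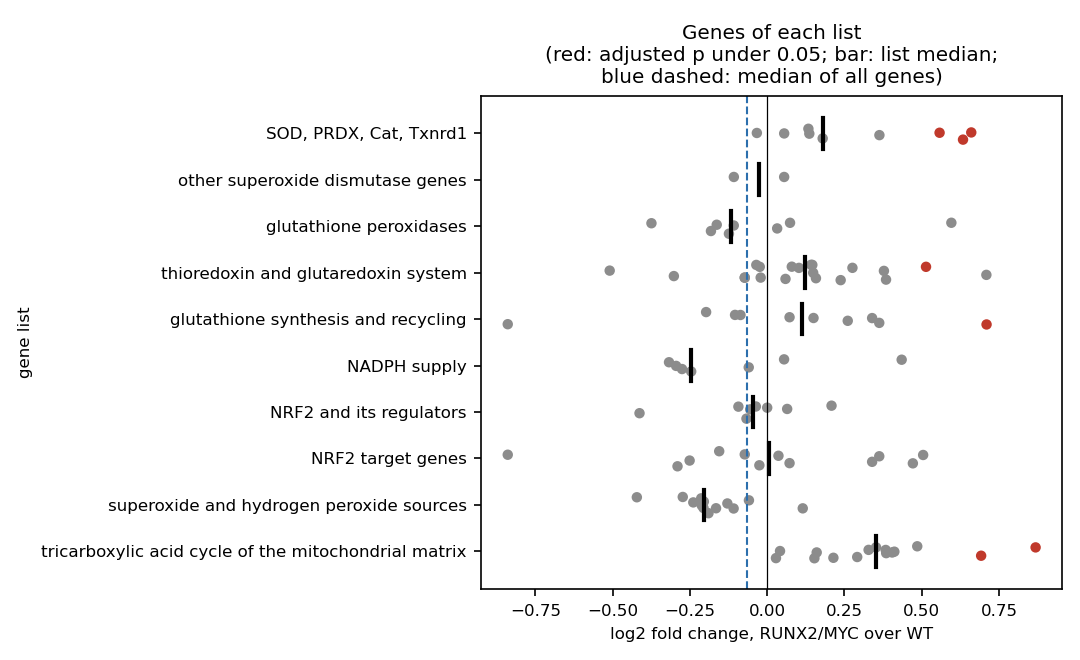
Log2 fold change of RUNX2/MYC over WT for each measured gene (points, red at an adjusted p under 0.05) of the antioxidant enzymes and of 9 lists of related genes. Black bars are list medians, from 0.35 for the tricarboxylic acid cycle to -0.25 for NADPH supply, and the dashed line is the median of all genes (-0.07).

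The array high in adipocyte genes was also the highest array for 6 of the 9 antioxidant genes, against 23.7% of all genes. These were Sod2, Prdx2, Prdx3, Prdx4, Cat and Txnrd1. The mean log2 signal of the 18 adipocyte markers was 8.32 in RUNX2/MYC replicate 2, 7.23 and 7.31 in the other RUNX2/MYC arrays and 7.11 to 7.46 in WT. Sod2 and Prdx3 were 0.60 and 0.55 log2 units above the WT mean in RUNX2/MYC replicate 1 and 0.62 and 0.58 in replicate 3, arrays without that signal. Leaving the array out gave changes of 0.61 for Sod2, 0.57 for Prdx3 and 0.56 for Prdx6. The erythroid markers averaged 7.60 in RUNX2/MYC replicate 1 and 6.96 to 7.28 in the other arrays, and leaving that array out gave 0.69, 0.68 and 0.55. All 10 thymic epithelial markers were negative, with a mean log2 signal of 9.64 to 9.81 in RUNX2/MYC and 9.99 to 10.15 in WT. So were all 8 granulocyte, 9 fibroblast and endothelial and 5 B cell markers measured, against 11931 of 19939 genes. The B cell means did not overlap (7.51 to 7.67 in RUNX2/MYC and 7.75 to 7.82 in WT). Those of the granulocyte and of the fibroblast and endothelial markers did. The mean of the thymocyte markers also overlapped (11.43 to 11.73 and 11.68 to 11.79). That mean covers members that went both ways, though none of the 13 passed. By unadjusted p 4 were lower, Cd4 (-0.74), Rag1 (-0.62), Rag2 (-0.55) and Dntt (-0.52), and 1 was higher, Cd3d (0.32), each with no overlap between groups. Of all probe sets 9.27% were lower and 12.0% higher by unadjusted p, and 10.1% were lower and 14.3% higher without overlap. Rag1, Rag2 and Dntt act in rearranging antigen receptor genes in developing thymocytes. The part of a shift in cell types or thymocyte stages in the rise of the 3 genes was not tested beyond this.

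**Figure D4:**
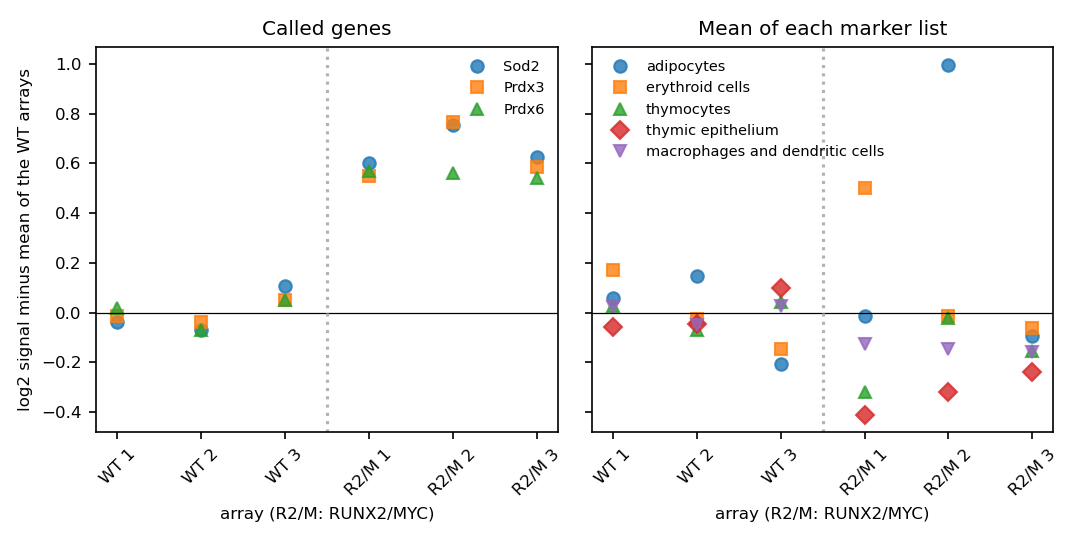
Log2 signal minus the mean of the WT arrays on each of the 6 arrays, for Sod2, Prdx3 and Prdx6 (left) and for the mean of 5 marker lists (right). The 3 genes lie 0.54 or more above the WT mean in each RUNX2/MYC array, whereas the adipocyte mean is high in RUNX2/MYC replicate 2 alone.

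The calls were lost in some of the fits that leave out 1 array, although the sizes moved little. None of the 9 genes passed limma when RUNX2/MYC replicate 2 or 3, or WT replicate 1 or 2, was left out, with 4 higher at an unadjusted p under 0.05 in each case. In those fits 3, 3, 4 and 3 probe sets of the whole array were called higher and 0 lower, and none of Txn2, Ggct, Idh3a and Suclg2 was among the calls. Without RUNX2/MYC replicate 1, Sod2, Prdx3 and Prdx6 passed (adjusted p = 0.0433, 0.0433 and 0.0439 from limma), with 872 probe sets higher. Txn2, Ggct, Idh3a and Suclg2 also passed in that fit. Without WT replicate 3, Sod2, Prdx3, Prdx6, Ggct and Suclg2 passed and Txn2 and Idh3a did not (adjusted p = 0.0588 and 0.0584 from limma). Over the 6 fits that leave out 1 array the change ran from 0.61 to 0.71 for Sod2, from 0.57 to 0.68 for Prdx3 and from 0.52 to 0.58 for Prdx6. Under 75th percentile centring none of the 3 passed (adjusted p = 0.053, 0.0624 and 0.0936 from limma), and under cyclic loess Prdx6 did not (adjusted p = 0.0545). Txn2 did not pass under 75th percentile centring, quantile normalization or cyclic loess (adjusted p = 0.12, 0.0624 and 0.0682 from limma). Idh3a did not pass under 75th percentile centring (adjusted p = 0.0643 from limma).

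**Figure D5:**
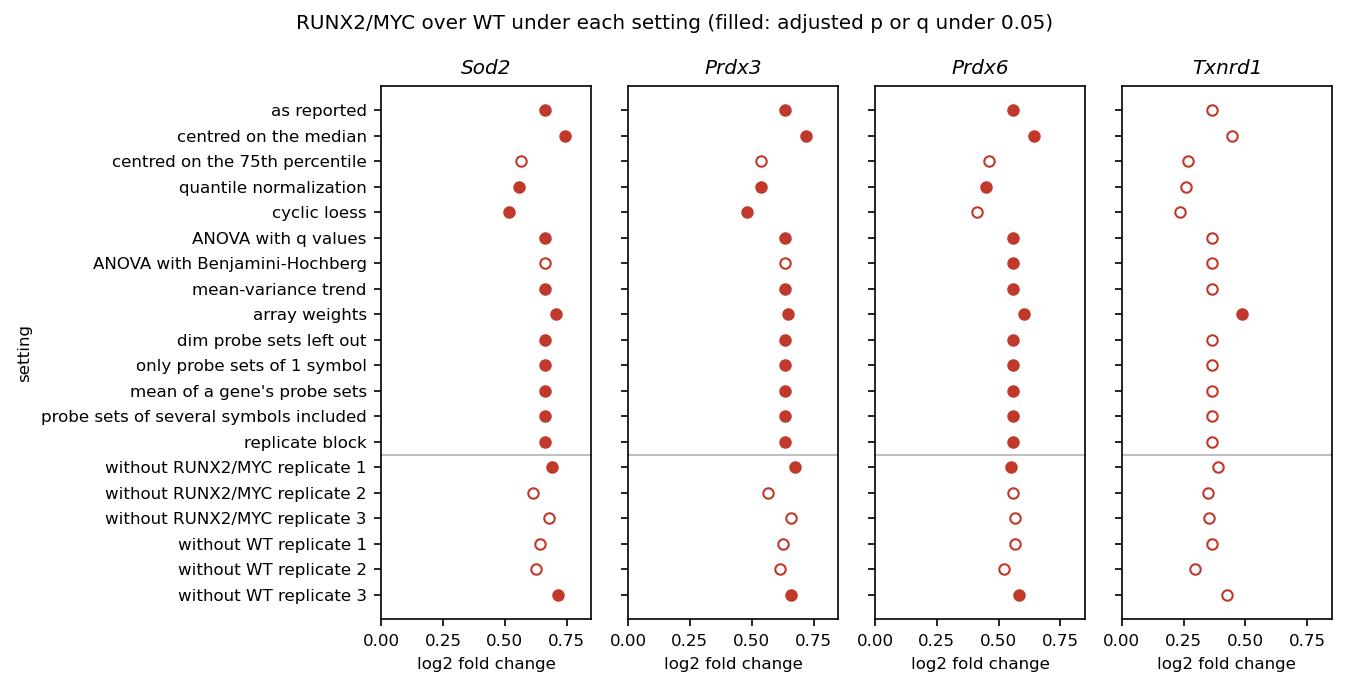
Log2 fold change of Sod2, Prdx3, Prdx6 and Txnrd1 as reported and under 19 other settings, those below the line leaving out 1 array. Points are filled at an adjusted p or q under 0.05. Sod2, Prdx3 and Prdx6 keep values of 0.41 or more throughout, and Txnrd1 passes under array weights alone.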

How the data were processed

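Thymus RNA of 6 mice was hybridised to Affymetrix MoGene-1 arrays, and the deposited values are log2 signals, 1 per probe set and array. The submitters' processing notes name RMA (background correction, normalization between arrays, summary of each probe set) and Affymetrix Expression Console 1.4. In the methods the software is Partek Genomics Suite, probes were adjusted for GC before background correction, and the test was an ANOVA with q values. A genome build is not given in the sources used here. The log2 signals of the authors were used unchanged. The platform annotation gives 1 gene symbol for 21789 of 35556 probe sets, several for 1621 and none for 12146.

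The groups were compared by limma 3.58.1 in R 4.3.3, with SE (standard error) and 95% intervals from the moderated fit and p-values adjusted over the whole array by Benjamini-Hochberg. The code was run on simulated data with planted changes larger than those of the antioxidant genes. Recovery of changes of their size was therefore not tested. A gene took its brightest probe set. Differences between genes within arrays were tested by exact permutation over the 10 splits of 3 against 3. Of 4 planned pairs, the 2 with Prdx5 could not be formed. From the supplement only the probe set names of Prdx6 and Runx2 were taken, and its fold changes and p-values were not used. It lists probe sets the study called on these arrays, so both genes entered already called. Named genes are all antioxidant genes of the list and, in each further list, those called or, with none called, that of largest absolute change. Txnrd2, Txn1, Glrx3, Txnip, Nfe2l2, Ccs and the marker genes fall outside this rule and were chosen after their values were seen. The genes, lists and tests were chosen with earlier results of these data known. Arrays are labelled as biological replicates, and p-values measure the spread between these arrays. Alternatives covered scaling, test, filters, probe set choice, pairing and left-out arrays. Promoter sequences are RefSeq's (GRCm38.p6), whose coordinates belong to that build only.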

Additional observations from a re-analysis of the deposited data

How the results depend on the processing

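Sod2, Prdx3 and Prdx6 kept their direction under all 19 alternatives, and each passed in 13 of them. Txn2 passed in 11, Ggct in 14, Idh3a in 12 and Suclg2 in 15. The count of 3 higher antioxidant genes was 0 under 75th percentile centring, 1 by the ANOVA with Benjamini-Hochberg adjustment (Prdx6), 6 under array weights, and 0 to 3 when 1 array was left out. The estimate of array weights stopped before it converged, and that fit called 9165 probe sets higher and 12137 lower. The cause of the other differences was not tested.

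Of the 90 further redox genes, 4 higher and 0 lower as reported, 8 were higher under median centring and with a mean-variance trend, 2 under 75th percentile centring and by the ANOVA with Benjamini-Hochberg adjustment, 9 by the ANOVA with q values and with a replicate block, 10 without dim probe sets, 11 over probe sets of 1 symbol and 32 under array weights. Without single arrays it was 0 to 7. Those lower were 2 under cyclic loess, 21 under array weights, and 1 by either ANOVA, without dim probe sets, over probe sets of 1 symbol and with a replicate block.

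Over all probe sets, 596 higher and 45 lower, the higher were 915 under median centring, 209 under 75th percentile centring, 1213 by the ANOVA with q values, 162 with its Benjamini-Hochberg adjustment, 1054 with a trend, 1247 without dim probe sets, 1237 over those of 1 symbol and 1654 with a replicate block, and 3 to 872 without single arrays. The lower were 98 under quantile normalization, 124 under cyclic loess, 247 by the ANOVA with q values, 104 with a trend, 145 without dim probe sets, 149 over those of 1 symbol, 763 with a replicate block and 0 to 718 without single arrays.

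The sign turned for genes near 0 that did not pass: Sod1 (0.051 under median centring, and -0.11 to 0.12 without single arrays, being above 0 without WT replicate 1 or RUNX2/MYC replicate 3), Prdx2 (-0.041 under 75th percentile centring, -0.012 under quantile normalization, -0.068 under cyclic loess), Cat (-0.0058) and Sod3 (0.010), both under cyclic loess. Same-numbered arrays deviated together for replicates 1 and 3 but not 2 (correlations of 0.50, 0.61 and -0.15), and RUNX2/MYC replicate 2 correlated best with WT replicate 3 (0.21), so the numbers were not taken as pairs. The replicate block changed no call among the antioxidant genes.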
